A study of Mus musculus with 4 samples.

Results

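The genes of the major histocompatibility complex (MHC) and of antigen presentation were examined in mouse gastrocnemius, a calf muscle. Members were all gene rows whose symbol starts with H2-, the mouse MHC prefix, together with B2m, Tap1, Tap2, Tapbp, Cd74 and Ciita. They numbered 49 of the 23282 gene rows. Of these, 36 belonged to class I (heavy chains, their light chain B2m and the peptide loading genes Tap1, Tap2 and Tapbp), 12 to class II (chains, the H2-DM and H2-O genes, Cd74 and Ciita), and H2-Ke6 was an enzyme gene located in the complex.

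The data were QuantSeq 3′ mRNA-seq libraries of CDF1 mice, labelled as postnatal day 28, with 1 library in each of 4 groups. Normal control mice (E-&T-) had neither exercise nor tumor, normal exercise mice (E+&T-) had high-intensity treadmill exercise, cancer control mice (E-&T+) had received CT26 murine colorectal cancer cells through the tail vein, and cancer exercise mice (E+&T+) had both. The study's methods give male mice. CT26 cells delivered in this way seed tumors through the body, so the muscle was not the site of injection. The series design names 10 mice per group and the study's text a representative mouse of each, so it is open if RNA of 1 mouse or a pool was sequenced. The methods give mice of about that labelled age at purchase, before the experiment began, so the age of the sampled muscle is not settled. Since every group is a single library, spread between animals could not be measured, no p-value is given, and the intervals below cover counting error only.

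Class I molecules present peptides from inside the cell, mostly made by the proteasome, to CD8 T cells. A heavy chain pairs with B2m, Tap1 and Tap2 form the pump that brings peptides into the endoplasmic reticulum, and Tapbp (tapasin) holds the empty molecule at that pump. Nearly all nucleated cells make class I, although skeletal muscle fibres make little of it at rest. Class II molecules present peptides from engulfed material to CD4 T cells and are made mainly by dendritic cells, macrophages and B cells. Cd74, the invariant chain, guides class II molecules to the endosome, H2-DM exchanges its remnant for peptide, H2-O restrains H2-DM, and Ciita switches the class II genes on.

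The promoters of 5 members are shown here, those of the chains on which the results turn, with short sequences known from MHC promoters. The sequences come from RefSeq, build GRCm38.p6, the assembly also called mm10 that the submitters' processing notes name. Each is the 200 bases before the transcription start, 5′ to 3′ on the strand of the gene. H2-Aa lies at chr17:34287824-34288023 on the minus strand, H2-Eb1 at chr17:34305667-34305866 on the plus strand, H2-K1 at chr17:34000348-34000547 on the minus strand (the first of 2 listed starts), H2-D1 at chr17:35262894-35263093 on the plus strand and B2m at chr2:122147487-122147686 on the plus strand. Capitals mark a Y box in H2-Aa and H2-Eb1, a kappa B form in H2-K1, a kappa B form and then a reversed Y box in H2-D1, and an interferon element form in B2m.
H2-Aa: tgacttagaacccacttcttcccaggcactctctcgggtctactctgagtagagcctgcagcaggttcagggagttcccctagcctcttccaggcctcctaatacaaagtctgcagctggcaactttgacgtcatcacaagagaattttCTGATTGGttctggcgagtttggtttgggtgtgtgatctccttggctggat
H2-Eb1: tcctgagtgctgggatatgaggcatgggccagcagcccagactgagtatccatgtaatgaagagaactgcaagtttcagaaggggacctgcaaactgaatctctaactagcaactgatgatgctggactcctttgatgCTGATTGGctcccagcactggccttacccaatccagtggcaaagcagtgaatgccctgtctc
H2-K1: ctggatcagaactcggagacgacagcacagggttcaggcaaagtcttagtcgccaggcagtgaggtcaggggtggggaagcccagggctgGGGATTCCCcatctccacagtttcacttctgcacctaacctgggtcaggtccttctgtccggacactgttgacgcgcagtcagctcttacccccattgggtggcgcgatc
H2-D1: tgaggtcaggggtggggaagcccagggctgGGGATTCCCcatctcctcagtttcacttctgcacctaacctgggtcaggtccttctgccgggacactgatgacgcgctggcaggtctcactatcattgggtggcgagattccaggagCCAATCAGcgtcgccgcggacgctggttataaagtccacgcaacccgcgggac
B2m: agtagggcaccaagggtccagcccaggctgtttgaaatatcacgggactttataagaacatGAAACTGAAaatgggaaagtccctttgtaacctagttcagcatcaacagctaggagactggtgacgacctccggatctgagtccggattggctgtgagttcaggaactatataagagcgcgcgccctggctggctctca
Of the 49 members, 34 had an entry in the RefSeq promoter table, 25 of class I and 8 of class II among them. The 250 bases before each start were searched on both strands. The Y box CTGATTGG, which the factor NF-Y binds, was found in 13 of the 25 class I promoters and in 4 of the 8 class II promoters (H2-Aa, H2-Eb1, H2-Eb2 and H2-Oa), against 3.83% of all 32851 promoters in the table. Of the 13 class I genes, only H2-D1, H2-T23 and Tap1 had reads. The rest were H2-M and H2-Q genes without reads in any library. The form GGGATTCCC, which NF-kappa B binds, was found in H2-D1, H2-K1, H2-Q6 and H2-Q7 and in no class II promoter, against 0.301% of all promoters. The form GAAANNGAA of the interferon-stimulated element was found in B2m, H2-T22 and H2-T23 and in no class II promoter, against 7.13% of all. The exact letters AGCAACAG, a form of the X box core, were found in none of the members searched and in 1.83% of all promoters. These matches describe letters in a window and not binding sites. Other spellings of these elements were not searched, so a promoter without a match may still hold the element. CDF1 mice descend from BALB/c and DBA/2 parents, which carry the H-2d haplotype, while the reference is C57BL/6J of the H-2b haplotype. Reads of the H-2d alleles were therefore matched to H-2b sequences in every library, and the printed promoters are those of the reference.

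The 4 libraries held from 10647440 to 13226041 reads, with 14427 to 14830 of the 23282 rows at 1 read or more. Muscle fibre markers were strongly expressed in every library, with summed levels given below beside those of other cell types. Levels are given as the authors' normalized read count, with reads per library rebuilt from the deposited values. Reads of this kit start at the 3′ end of a transcript, so that long genes gain no extra reads and levels can be set side by side between genes. Between MHC genes such comparisons stay uncertain, since reads of H-2d alleles and of close copies were matched to H-2b sequences. Fold changes are differences of log2(normalized read count + 1). A row was called changed when it differed by at least 2-fold and reached a normalized read count of 4 in either library compared. Where 4 values follow a gene without further words, they are in the order normal control, normal exercise, cancer control, cancer exercise.

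Of the 49 members, 33 had reads, and the 16 without any were class I heavy chains of the H2-Q and H2-M families. A normalized read count of 4 was reached in at least 1 library by 14 class I members, 9 class II members and H2-Ke6. The 6 class I and 3 class II members with reads below that level had at most 4 reads in any library. Ciita was among them, with 1 read in normal control and none in the other libraries. H2-D1 and B2m were the most abundant class I members and H2-Aa the most abundant class II member.

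**Figure D1:**
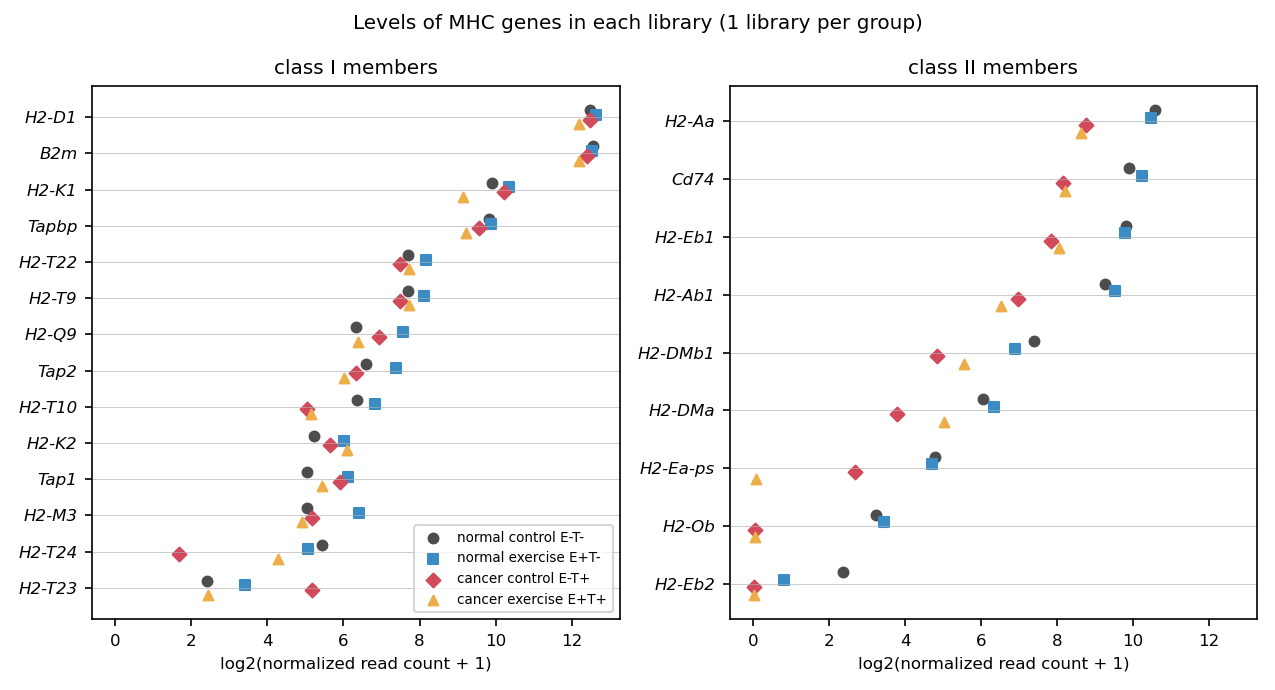
Level of each class I (left) and class II (right) member that reached a normalized read count of 4, on the x axis as log2(normalized read count + 1). Each symbol is 1 library. For class II the cancer control and cancer exercise symbols lie to the left of both normal symbols in every row, while for class I the symbols of most rows overlap.

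Class II genes were lower in both libraries from tumor-bearing mice. Together the 12 class II members made up 0.0355% and 0.0418% of reads in the normal control and normal exercise libraries, and 0.00982% and 0.00941% in the matching cancer libraries. Their summed normalized read count was 3.80-fold lower in cancer control than in normal control and 3.99-fold lower in cancer exercise than in normal exercise. These 2 comparisons share no library. In bulk muscle, fewer cells of a type and less RNA per cell cannot be told apart.

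H2-Aa, the alpha chain of the I-A molecule, stood at a normalized read count of 1535 and 1410 in the control and exercised normal muscle, and at 437 and 398 in the corresponding muscle of tumor-bearing mice. Its log2 fold change with tumor was -1.81 (95% counting interval -1.97 to -1.65) without exercise and -1.82 (-1.99 to -1.66) in exercised mice. H2-Ab1, the I-A beta chain, stood at 610, 737, 124 and 91.0. The step was larger for this chain, at -2.28 (-2.60 to -2.004) without exercise and -3.00 (-3.36 to -2.69) with it. H2-Eb1, the beta chain of the I-E molecule, stood at 895, 889, 230 and 264, a log2 fold change of -1.95 (-2.18 to -1.74) and -1.75 (-1.96 to -1.55). For all 3 chains the normal libraries lay far above the cancer libraries.

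The genes that serve the class II chains were lower too. Cd74 stood at 945, 1211, 283 and 295, and its change with tumor on the log2 scale was -1.74 (-1.95 to -1.54) without exercise and -2.04 (-2.23 to -1.85) in exercised mice. H2-DMb1, the beta chain of the peptide exchanger, stood at 167, 118, 27.9 and 45.6. Its partner H2-DMa stood at 65.9, 79.6, 12.9 and 31.4, on 62, 98, 12 and 29 reads. With tumor H2-DMb1 was lower by a log2 fold change of -2.54 (-3.24 to -1.98) and -1.35 (-1.90 to -0.87), and H2-DMa by -2.27 (-3.39 to -1.45) and -1.31 (-1.99 to -0.73). For both genes the intervals in exercised mice reach below 2-fold, and for H2-DMb1 they do not overlap those without exercise. The difference between the tumor effects was not tested.

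The remaining class II members had few reads. H2-Ob, a chain of the H2-DM inhibitor, had 8 and 12 reads in the normal libraries and none in either cancer library, so that it was at least 2.65-fold and at least 2.99-fold lower. H2-Ea-ps, the I-E alpha gene that is a pseudogene in the reference strain, had 25, 31, 5 and 0 reads. It was lower with tumor by a log2 fold change of -2.10 (-4.05 to -0.90) without exercise. In exercised mice it was 7.73-fold lower against a floor of 3 reads, with an upper interval limit of -2.57 on the log2 scale. H2-Eb2 had 4, 1, 0 and 0 reads. H2-Oa had 4 reads in normal exercise, H2-DMb2 had 1 read in normal control, and both were without reads elsewhere.

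In cancer control against normal control, 9 of the 9 class II members that reached the minimum were at least 2-fold lower and 0 were higher, where 24.2% of the 14818 rows tested were lower and 20.9% higher. In cancer exercise against normal exercise, 8 of 8 were lower and 0 higher, where 16.3% of the 14470 rows were lower and 13.9% higher. H2-Eb2 and H2-Ob, and in exercised mice H2-Ea-ps, reached the minimum only through the normal library of the pair and could hardly be other than lower. Among the 6 class II members with a mean of at least 16, a level chosen after the data were seen, all 6 were lower in both comparisons. Their median log2 fold change was -2.11 without exercise and -1.79 in exercised mice. For all 9 members that reached 4 in any library it was -2.27 and -1.82, against -0.016 and 0.007 over all rows.

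**Figure D2:**
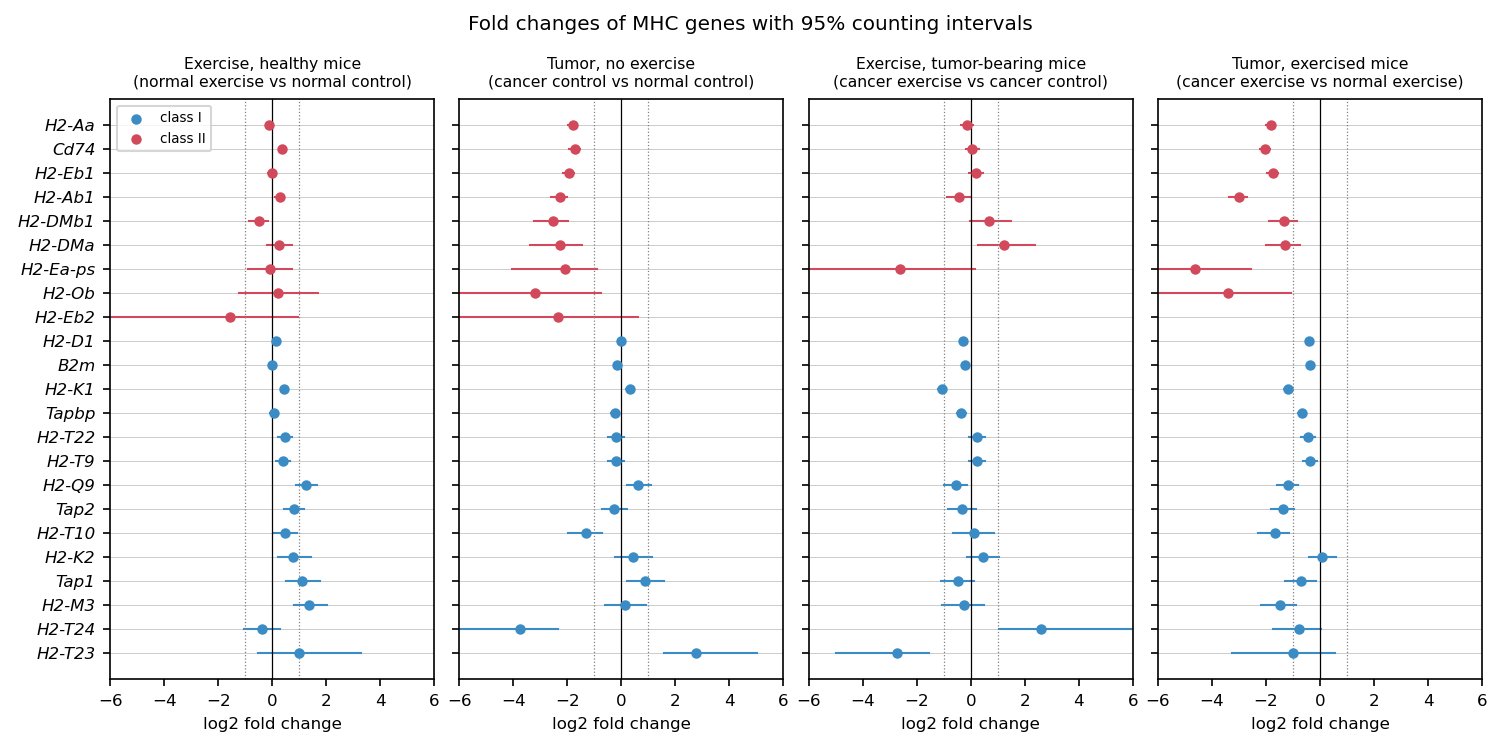
Log2 fold change (x axis) of each class I (blue) and class II (red) member that reached a normalized read count of 4 in the pair compared, with 95% counting intervals as lines and 2-fold as dotted lines. The class II points drawn lie left of the 2-fold line in both tumor comparisons (H2-Eb2, below the minimum in exercised mice, is not drawn there) and near 0 in most rows of the exercise comparisons, and intervals are drawn only as far as 6.

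Class I genes as a whole kept close to their level with tumor in mice without exercise. The 36 class I members made up 0.121%, 0.148%, 0.122% and 0.0949% of reads. Their summed normalized read count was 1.04-fold lower in cancer control than in normal control, a difference that turned to slightly higher when reads were scaled to total counts, and 1.40-fold lower in cancer exercise than in normal exercise. The median log2 fold change of the 14 members that reached the minimum was -0.08 without exercise and -0.74 in exercised mice.

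The classical heavy chains and B2m carried most class I reads. H2-D1 stood at 5732, 6338, 5728 and 4717, lowest with both tumor and exercise. B2m stood at 6092, 5988, 5472 and 4681. H2-D1 differed little between cancer control and normal control, at -0.001 (-0.06 to 0.05), and was lower in cancer exercise than in normal exercise at -0.43 (-0.48 to -0.37). H2-K1, the other classical heavy chain of this list with many reads, stood at 955, 1301, 1183 and 570, lowest in cancer exercise. It was higher with tumor without exercise, at 0.31 (0.18 to 0.44), and lower with tumor in exercised mice, at -1.19 (-1.34 to -1.05). H2-L, a classical chain that the H-2d haplotype carries, was among the members that did not reach the minimum. Reads were matched to the H-2b reference, so this row may not give the level of H2-L.

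The peptide loading genes spread in the same range. Tapbp stood at 904, 938, 758 and 595. Tap1 stood at 31.9, 69.0, 58.9 and 42.3, lowest in normal control. Tap2 stood at 95.7, 166, 79.3 and 63.9, highest in normal exercise, and was lower in cancer exercise than in normal exercise by a log2 fold change of -1.37 (-1.82 to -0.95). For Tapbp and Tap1 no tumor comparison reached 2-fold.

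Nonclassical class I genes, whose products bind special peptides or serve as ligands for natural killer and gamma delta T cells, varied more from gene to gene. H2-T22 stood at 207, 289, 180 and 211, and H2-T9 at 206, 275, 180 and 211. H2-T9 had 95.2 to 100 reads per 100 reads of H2-T22 in the 4 libraries, and since the genes are near-identical copies, these are uncertain as separate values. H2-T10, a close relative, is a transcribed pseudogene in the reference, and its count may carry the same uncertainty. It stood at 80.8, 113, 32.2 and 34.7, a log2 fold change with tumor of -1.30 (-1.99 to -0.70) and -1.67 (-2.30 to -1.14). H2-T10 was thus the one class I member called lower in both tumor comparisons.

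H2-T24 and H2-T23 set cancer control apart. H2-T24 had 40, 40, 2 and 17 reads. It differed by -3.76 (-7.41 to -2.36) in cancer control against normal control. H2-T23, which encodes Qa-1, the ligand of the inhibitory receptor NKG2A, had 4, 12, 33 and 4 reads. It was higher in cancer control than in normal control by a log2 fold change of 2.77 (1.56 to 5.01). The genes lie beside each other at chr17:36003471-36020800 and chr17:36029977-36032701. In both, cancer control was the library that stood apart, in opposite directions.

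H2-M3, which presents formylated bacterial peptides, stood at 31.9, 83.7, 35.4 and 29.3, high in normal exercise alone. H2-Q9 stood at 78.7, 187, 122 and 82.3, also highest in normal exercise. H2-K2, a transcribed pseudogene in the reference, stood at 36.2, 63.3, 49.3 and 67.1. The H2-Q and H2-K families hold close copies, so counts of single members are uncertain. H2-Ke6, an enzyme gene of steroid metabolism that presents no peptide, stood at 577, 780, 630 and 877.

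By calls, 2 of the 14 class I members were lower (H2-T24 and H2-T10) and 1 higher (H2-T23) with tumor without exercise, below the shares of all rows given above. In exercised mice 5 of 14 were lower with tumor (H2-K1, Tap2, H2-Q9, H2-T10 and H2-M3) and 0 were higher, against 16.3% and 13.9% of all rows. All 5 stood highest in normal exercise, the library that this comparison shares with the exercise comparison in healthy mice.

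The balance between the classes was compared inside each library, where scaling plays no part. Per 100 class I reads, normal control had 29.4 class II reads (95% interval 28.3 to 30.4) and normal exercise 28.3 (27.4 to 29.1), against 8.05 (7.55 to 8.57) for cancer control and 9.92 (9.29 to 10.6) for cancer exercise. The normal libraries lay together and the cancer libraries lay far below them, with cancer exercise above cancer control beyond counting error. Without the most abundant row of each class the values were 32.4, 31.1, 8.09 and 10.9.

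**Figure D3:**
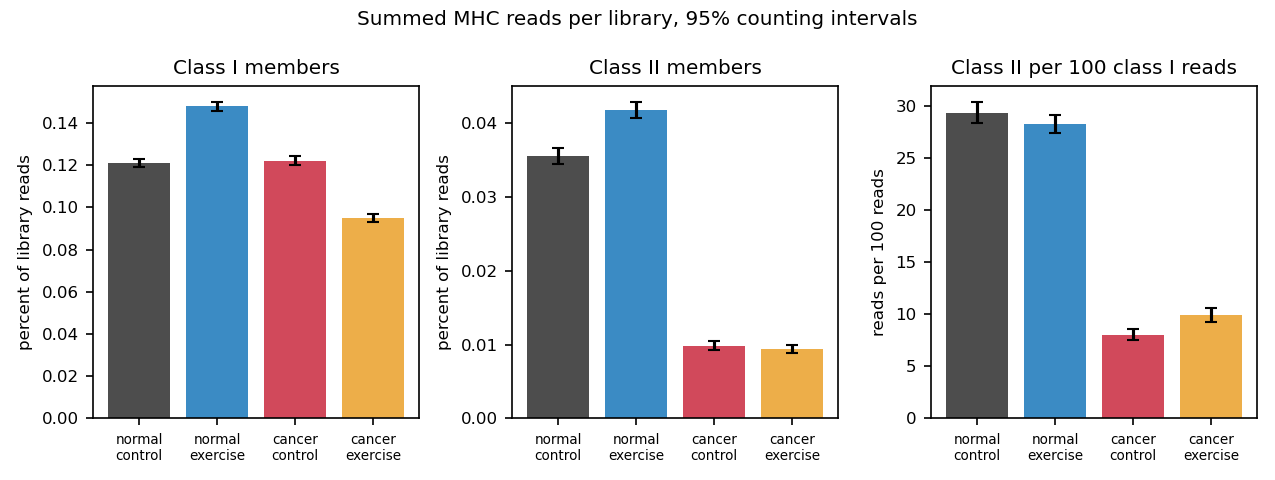
Summed class I reads (left) and class II reads (middle) as a percent of library reads, and class II reads per 100 class I reads (right), with bars for the 4 libraries and error bars for 95% counting intervals. Class II falls from 0.0355% and 0.0418% in the normal libraries to 0.00982% and 0.00941% in the cancer libraries, whereas class I stays between 0.0949% and 0.148%.

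Within class II the proportions of the genes also shifted. Per 100 H2-Aa reads, H2-Ab1 had 39.7 (36.0 to 43.8), 52.2 (48.2 to 56.6), 28.4 (22.9 to 35.0) and 22.9 (17.8 to 29.1) reads. Cd74 had 61.6, 85.8, 64.7 and 74.1 reads per 100 H2-Aa reads, and H2-Eb1 had 58.4, 63.0, 52.7 and 66.5. The I-A beta chain was thus lower against its alpha chain in both cancer libraries, while Cd74 and H2-Eb1 did not separate normal from cancer libraries. Within class I, H2-K1 had 16.7, 20.5, 20.7 and 12.1 reads per 100 H2-D1 reads, lowest in cancer exercise, and B2m had 91.1, 78.4, 79.2 and 88.5 reads per 100 reads of both heavy chains.

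Exercise left the summed class II level nearly level. It was 1.05-fold higher with exercise in healthy mice, and the log2 ratio in tumor-bearing mice was 0.005. In healthy mice 0 of 9 class II members were higher and 1 was lower, where 9.44% of the 14518 rows tested were higher and 12.1% lower. The lower one was H2-Eb2, on 4 reads against 1, with a log2 fold change of -1.55 (-8.01 to 0.95). In tumor-bearing mice 1 of 7 was higher and 1 lower, where 15.6% of the 14491 rows were higher and 15.1% lower. The higher one was H2-DMa at 1.22 (0.27 to 2.39), and the lower one was H2-Ea-ps with 5 reads against 0. The median log2 fold change of class II was -0.01 for healthy and 0.007 for tumor-bearing mice.

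In class I, exercise in healthy mice went with higher levels of several genes. Of 14 members 4 were at least 2-fold higher and 0 were lower, where 9.44% of all rows were higher and 12.1% lower. The 4 members were H2-M3 at 1.36 (0.79 to 2.03), H2-Q9 at 1.24 (0.87 to 1.65), Tap1 at 1.09 (0.49 to 1.76) and H2-T23 at 1.01 (-0.53 to 3.28), the last on 12 reads against 4. The median was 0.48, with 12 of 14 above 0, against -0.022 over all rows. B2m stayed at -0.03 (-0.07 to 0.03), and with total count scaling at 0.14.

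In tumor-bearing mice the class I median was -0.27. With exercise 1 of 14 members was higher and 2 were lower, where 15.6% of all rows were higher and 15.1% lower. H2-T24 was higher with exercise at 2.60 (1.03 to 6.26), while H2-K1 at -1.05 (-1.21 to -0.90) and H2-T23 at -2.75 (-4.99 to -1.54) were lower. This comparison and that of tumor without exercise share the cancer control library, whose 2 reads of H2-T24 and 33 reads of H2-T23 enter both.

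Of 12 proteasome, trimming and folding genes that supply class I, 3 were lower and 2 higher with tumor without exercise, near the 24.2% and 20.9% of all rows, with a list median of -0.67 (-0.15 in exercised mice). Sec61b, a subunit of the endoplasmic reticulum channel, at -1.55, and the immunoproteasome subunits Psmb8 at -1.37 and Psmb10 at -1.11 were lower, and the chaperone Canx at 1.30 and the proteasome activator Psme3 at 1.08 were higher. In exercised mice 1 was lower with tumor, the immunoproteasome subunit Psmb9 at -1.55, and 0 were higher, against 16.3% and 13.9% of all rows. Exercise in tumor-bearing mice went with higher Sec61b at 1.38, Tapbpl at 1.15 and Psmb8 at 1.11, and with 0 lower. That was 3 of 12 higher, where 15.6% of all rows were higher and 15.1% lower. In healthy mice it went with higher Tapbpl, a peptide editor, at 1.14, and with 0 lower. That 1 of 12 was near the 9.44% of all rows that were higher, where 12.1% were lower.

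Of 9 genes that act on class II peptides or class II turnover, 5 were higher and 0 lower with tumor without exercise, against 20.9% and 24.2% of all rows, and the list median was 1.47 (0.76 in exercised mice). Ctsl, a cysteine protease of the lysosome, stood at 1348, 1365, 13757 and 4522, a log2 fold change of 3.35 in cancer control. March1, a ligase that takes class II off the cell surface, had 9 reads in normal control against 87 with tumor, at 3.15. Ifi30, the lysosomal thiol reductase, at 2.62, Ctss, the protease that cuts Cd74, at 1.75 and Ctsd at 1.47 were also higher. Members that were not called include Sppl2a, the protease that cuts the last Cd74 fragment, at 849, 769, 441 and 630, and March8 at 284, 315, 301 and 284. In exercised mice 3 were higher with tumor (Ctsl at 1.73, Ctss at 1.36 and Lgmn at 1.20) and 0 lower, against 13.9% and 16.3% of all rows. Exercise went with higher Ifi30 at 1.60 and March1 at 1.501 in healthy mice, with 0 lower, against 9.44% higher and 12.1% lower of all rows. In tumor-bearing mice it went with lower Ctsl at -1.60, with 0 higher, against 15.1% lower and 15.6% higher of all rows. Several of these proteases act in all lysosomes and are not particular to antigen presentation.

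Of 12 transcription factors of MHC genes, 3 were lower and 1 higher with tumor without exercise, a share of lower genes near the 24.2% of all rows and of higher genes below their 20.9%, with a list median of -0.16 (-0.18 in exercised mice). Rfxank, a subunit of the RFX complex that binds the class II promoter, was at -1.99, Creb1 at -1.08 and the NF-Y subunit Nfya at 1.69. In exercised mice 1 was lower with tumor, the RFX subunit Rfx5 at -1.22, and 0 were higher, against 16.3% and 13.9% of all rows. Exercise in healthy mice went with higher Nfya at 1.79 and lower Rfxank at -1.25, and in tumor-bearing mice with higher Rfxank at 1.71. Nlrc5, the class I transactivator, named here for its role although its level was low, had 6, 3, 12 and 4 reads, and was counted as lower in both exercise comparisons. With exercise 1 of 12 was higher and 2 lower in healthy mice, against 9.44% and 12.1% of all rows. In tumor-bearing mice 1 was higher and 1 lower, against 15.6% and 15.1%.

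Of 25 genes of interferon signalling, 17 were at least 2-fold lower and 1 higher with tumor without exercise, where 24.2% of all rows were lower and 20.9% higher. In exercised mice 8 of 25 were lower and 0 higher, where 16.3% of all rows were lower and 13.9% higher, with list medians of -1.30 and -0.48 on the log2 scale, against -0.016 and 0.007 over all rows. The guanylate binding protein Gbp4 at -2.94, the immunity-related GTPases Igtp at -2.77 and Irgm2 at -2.69, and Ifit3 at -2.75 were lower in cancer control. The chemokine Cxcl10 was the exception, with 0 reads in normal control against 35 in cancer control, 11.7-fold higher against a floor of 3 reads. In exercised mice Ifit3 at -3.12, Gbp4 at -2.17, Gbp5 at -1.98, Iigp1 at -1.45 and Gbp7 at -1.26 were lower with tumor. Exercise in tumor-bearing mice went with 6 of 24 higher and 2 lower, where 15.6% of all rows were higher and 15.1% lower. The higher ones included Irgm1 at 2.52, Igtp at 2.17 and Irgm2 at 1.74, and the lower ones Cxcl10 at -2.83. In healthy mice 1 of 25 was higher and 1 lower, where 9.44% of all rows were higher and 12.1% lower. The lower one was the inhibitor Socs1 at -1.11. Ifng itself had no reads in any library. The part of these genes in the MHC levels was not tested.

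The cells that make class II were looked at through their markers. The summed normalized read count of 6 markers shared by leukocytes was 548, 537, 633 and 461. Of these, 0 of 6 were lower in either tumor comparison, where 24.2% and 16.3% of all rows were lower. Macrophage markers summed to 4481, 4402, 7725 and 7185, and Mertk was at 0. With tumor 5 of 11 were higher and 0 lower without exercise, against 20.9% and 24.2% of all rows. In exercised mice 2 were higher and 1 lower, against 13.9% and 16.3%. Class II reads per 100 macrophage marker reads were 95.1, 102, 14.5 and 15.6. Per 100 leukocyte marker reads they were 778, 834, 177 and 244. Both ratios were lower in the cancer libraries. The first depends on which macrophage markers fill its sum, so it does not give class II per macrophage. Whether the number of cells that make class II differed was not tested.

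Dendritic cell markers summed to 678, 716, 1574 and 1531, most of it from Clec10a, a lectin that macrophages also make, at 510, 510, 1484 and 1440. The other 9 markers did not move together. Siglech, Cd209a and Itgax, picked here after their values were seen, were lower in both tumor comparisons. Siglech, a marker of plasmacytoid dendritic cells, stood at 62.7, 87.0, 9.70 and 5.48. Cd209a stood at 45.7, 35.7, 11.8 and 13.1, and Itgax, which encodes CD11c, had 7, 5, 0 and 0 reads. Batf3, a transcription factor of cross-presenting dendritic cells, stood at 9.61, 24.4, 20.3 and 20.6, Zbtb46 at 18.1, 19.4, 25.7 and 17.4, and Clec9a at 13.8, 10.5, 9.67 and 17.3. Flt3 had 0, 7, 0 and 13 reads, Xcr1 had 10, 20, 12 and 0, and Ccr7 at most 4. With tumor 2 of 8 markers were higher and 3 lower without exercise, against 20.9% and 24.2% of all rows. In exercised mice 2 of 9 were higher and 4 lower, against 13.9% and 16.3%.

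B cell markers summed to 17.01, 44.9, 0.126 and 4.42. The 8 that were measured had no reads in cancer control, and Pax5 and Blk were at 0 in every library. Of the 3 that reached the minimum, 3 were lower with tumor without exercise, where 24.2% of all rows were lower. In exercised mice 2 were lower and 1 higher, where 16.3% of all rows were lower and 13.9% higher. Fibroblast markers summed to 98218, 46561, 37724 and 38921. With tumor 8 of 10 were lower without exercise and 7 of 10 in exercised mice, against those 24.2% and 16.3%. With exercise in healthy mice 7 of 10 were lower, against 12.1% of all rows. Muscle fibre markers summed to 2060999, 1686501, 1128867 and 1286885. They were 1.83-fold lower with tumor without exercise, with 5 of 12 lower and 1 higher, against 24.2% and 20.9% of all rows. In exercised mice they were 1.31-fold lower, with 2 lower and 2 higher, against 16.3% and 13.9%. Endothelial markers summed to 4869, 6538, 5806 and 6528. The summed levels of B cell, fibroblast and muscle fibre markers were thus lower with tumor in both comparisons, as class II was. So was that of T cell markers, given under the other observations. The sizes differed, and in exercised mice the fibroblast sum was 1.20-fold lower and the muscle fibre sum 1.31-fold lower, against 3.99-fold for class II. The part of these cell types in the class II result was not tested.

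**Figure D4:**
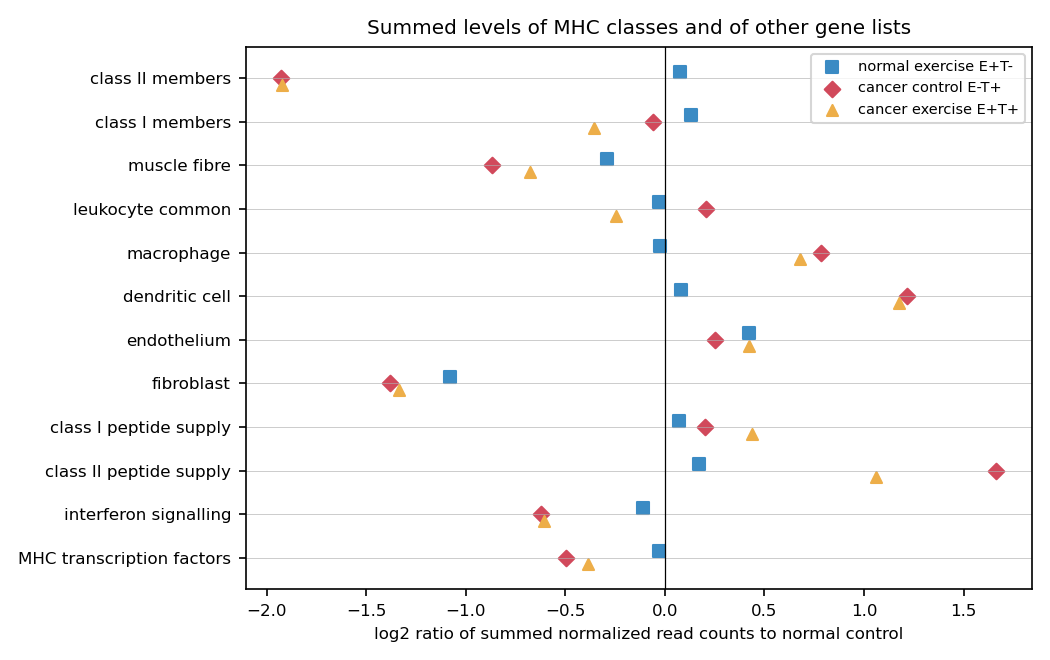
Log2 ratio (x axis) of the summed normalized read count of each list to normal control, for normal exercise (square), cancer control (diamond) and cancer exercise (triangle). Class II is near 0 in normal exercise and near -2 in both cancer libraries, while class I, leukocyte and endothelial lists lie within 0.5 of 0 and macrophage, dendritic cell and class II peptide supply lists lie above 0 in the cancer libraries.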

How the data were processed

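RNA of gastrocnemius was sequenced with the Lexogen QuantSeq 3′ kit, 1 library per group. The authors aligned reads with Bowtie2 to mm10, counted them with bedtools and used edgeR for quantile normalization (versions not given in the sources used here). The deposited unit is log2, taken after adding 1 to each normalized count. The handling of strand and of reads matching several genes is not given in the sources used here.

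Whole reads were rebuilt by modelling the quantile adjustment with 1 factor per library and a fitted dispersion of 0.340 (Python 3.11.15, scipy 1.17.1), and 100% of values lay within 0.0006 log2 of a whole read count. Between 94.9% and 96.2% of values per library were tied to 1 count, and the counts of H2-D1 and B2m in all libraries and of H2-Aa in normal exercise are approximate by about a read. The method was tested on simulated data. Intervals are 95% Clopper-Pearson on the reads of 2 libraries and cover counting error only, and a fold against 0 reads was computed against a floor of 3 reads.

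Groups came from sample titles. Members and lists were chosen with earlier results of these data known. Named were members that reached 16 normalized reads in any library, and of each pathway list up to 5 called genes of that level per comparison with the largest change, and some single genes of the lists are not reported here. Class I and class II were compared by counts, medians and sums, with no test. Alternatives were scalings of the rebuilt reads (total count, TMM, median of ratios), a pseudocount of 4, a minimum of 16 or none, a 4-fold threshold and sums without the top row. Positions are from GENCODE M21 and RefSeq, both of the mm10 assembly.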

Additional observations from a re-analysis of the deposited data

Results flagged for a closer look

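H2-T23 was singled out because its exercise effect had opposite directions in the 2 settings. It was higher with exercise in healthy mice, by a log2 fold change of 1.01 on 12 reads against 4, and lower with exercise in tumor-bearing mice, by -2.75 on 4 reads against 33. The second effect minus the first was -3.75 on the log2 scale. The difference was not tested, since each group had 1 library, and the interval of the effect in healthy mice (-0.53 to 3.28) includes 0.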

How the results depend on the processing

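Of 480 alternative values, 0 reversed a called change, but this outcome was nearly fixed in advance. The scalings moved folds by at most about 0.16 log2, and a pseudocount cannot change a sign. Counts were labelled only as same or moved, and medians and sums below 2-fold were not scored for a change of sign. The class II counts with tumor without exercise stayed within 1.5 times of 9 in each alternative run. Total count scaling changed the library factors so that fold changes of rows with many reads moved by about 0.16, 0.07, -0.07 and -0.16 log2. The order is exercise in healthy mice, tumor without exercise, exercise in tumor-bearing mice and tumor in exercised mice. Under total count scaling the medians over all rows were 0.12, 0, -0.02 and -0.15 in that order. With it the log2 ratio of summed reads was 0.29 for class I and 0.23 for class II with exercise in healthy mice, 0.013 for class I with tumor without exercise, -0.36 for class I with exercise in tumor-bearing mice, and -0.64 for class I and -2.15 for class II with tumor in exercised mice. The shift itself comes from the scaling. A further 16 values of single members moved, all with total count scaling. Without the most abundant row of the class the ratio was 0.17 for class II with exercise in healthy mice, and for class I -0.10 with tumor without exercise and -0.52 with tumor in exercised mice. With a pseudocount of 4 the class II median with tumor without exercise was -1.80, and 0 class II members were changed with exercise in healthy mice. Counts of changed members also moved with other thresholds. With a minimum of 16, and with a mean of at least 16 chosen after seeing the data, they were 0 for class II with exercise in healthy mice and 1 with exercise in tumor-bearing mice. With no minimum they were 4 for class II with exercise in healthy mice, 7 for class I with exercise in tumor-bearing mice and 8 for class I with tumor in exercised mice, since rows of few reads enter. At 4-fold they were 0 for both classes with exercise in healthy mice, 1 for class II with exercise in tumor-bearing mice, and 0 for class I and 4 for class II with tumor in exercised mice. No paired analysis was possible because each group had 1 library, and for the same reason no library could be left out. Depth limits the members with few reads, such as Ciita, H2-Ob, H2-Oa and H2-Eb2, whose absence from a library was not distinguishable from a level below 3 reads.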

Other observations

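Costimulatory genes, which antigen presenting cells show beside MHC molecules, were low throughout. Their summed normalized read count was 97.7 and 108 in the normal control and exercise libraries and 83.5 and 59.7 in the matching cancer libraries. With tumor 2 of 7 that reached the minimum were higher and 3 lower without exercise, against 20.9% and 24.2% of all rows. In exercised mice 1 of 5 was higher and 1 lower with tumor, against 13.9% and 16.3%. With exercise 1 of 6 was higher and 3 lower in healthy mice, against 9.44% and 12.1%. In tumor-bearing mice 2 of 6 were higher and 2 lower with exercise, against 15.6% and 15.1%. Cd83, a maturation marker of dendritic cells that stabilises class II at the surface, had 15 and 2 reads in the same normal libraries and 0 and 17 in the cancer libraries.

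Markers of the cells that read MHC molecules were near the limit of detection. In the order normal control, normal exercise, cancer control, cancer exercise, T cell markers summed to 22.3, 36.4, 9.67 and 16.2, with Cd8a and Cd5 at 0, and NK cell markers to 3.31, 28.3, 30.9 and 8.64, with Prf1 and Klre1 at 0. Neutrophil markers summed to 81.2, 161, 2691 and 1994. Epithelial markers, listed because CT26 is a carcinoma line, summed to 72.4, 67.7, 119 and 56.4, with Cldn4 at 0.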
